A study of Mus musculus with 45 samples.

Results

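The cohesin core subunits and the loop anchor factor Ctcf were followed by their chromatin accessibility in mouse erythroblasts with intact or deleted Stag2. The set was a fixed list of 6 genes, Stag1, Stag2, Smc1a, Smc3, Rad21 and Ctcf, out of 24333 genes with a gene score in the deposited table. All 6 were in the table and had a mean score above the low-value filter in every fit. The samples were 6 of the 45 in the series, the single-nucleus ATAC libraries of Ter119+ erythroblasts, which carry a surface protein of red cell precursors. There were 3 libraries labelled WT and 3 labelled KO for Stag2. Mice of both genotypes had received pIpC, the compound that triggers the deletion, 6 to 8 weeks earlier. The Cre line, sex and strain, and whether each library came from 1 animal, are not given in the sources used here, so p-values measure the spread between these libraries. The RNA, HSPC, CUT&RUN and Hi-C samples of the series were not analysed here.

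Cohesin is a ring of Smc1a, Smc3 and the kleisin Rad21, which closes the ring, and it carries either Stag1 or Stag2 as a peripheral subunit. The ring extrudes chromatin loops and holds sister chromatids together, and Ctcf, a zinc finger protein bound to DNA, stops extrusion and so marks loop ends. Stag1 and Stag2 are paralogues that can replace each other in part, so Stag1 was examined for a higher score in KO libraries. During red cell maturation the nucleus condenses before it is expelled.

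Between the authors' classes of nuclei, 4 of the 6 genes differed in both genotypes, 1 higher and 3 lower in Late nuclei. Over all genes 30.6% were called higher and 42.7% lower in WT (28.9% and 41.9% in KO), so that share is not above the background. In nuclei of the authors' class Late the score of Stag1 was 0.510 ± 0.0254 of that in their class Int in WT libraries and 0.453 ± 0.0137 of it in KO libraries (SD, n = 3 each). Smc1a and Ctcf were also lower in Late nuclei, Stag2 was higher, and the scores of Smc3 and Rad21 in Late nuclei were, as scaled here, 0.987 to 1.03 of those in Int nuclei. In KO against WT libraries Stag1 was lower in Late nuclei, and over all nuclei under some scalings. In Late nuclei its score fell from 71.6 ± 4.01 to 58.9 ± 2.24. The score of Stag2 itself lay at 65.3 ± 0.891 in WT and 62.9 ± 2.08 in KO libraries, with overlapping libraries.

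The gene score is a signal that the authors derived from ATAC fragments around a gene in each nucleus. It measures accessibility and not transcript level, it takes in fragments shared with neighbouring genes, and it cannot tell if an exon is missing. Values are means over the nuclei of a library, scaled so that each library sums to 1000000, and where 3 are given for a genotype they follow replicates 1, 2 and 3. In such bulk means, fewer nuclei with an open gene and less signal per nucleus cannot be told apart. WT libraries held 5819 to 6990 nuclei and KO libraries 4617 to 4925, with medians of 7122.5 to 8056 and 7742 to 8874 fragments per nucleus. Of 33320 barcodes, 725 occurred in more than 1 library. The erythroblast label was met: all 9 listed erythroblast markers in the table had scores above that of the median gene. So did 3 of 4 megakaryocyte, 2 of 6 myeloid and 2 of 6 lymphoid markers, so this trait is not particular to erythroblast markers. The erythroblast markers summed to 1915 to 2078 in WT and 1653 to 1818 in KO libraries, without overlap. By the test used below 8 of the 9 were lower in KO (5 to 8 under other scalings). The summed scores of the stem and progenitor markers (42.9 to 51.7 in WT, 53.0 to 63.1 in KO) and of the lymphoid markers (73.2 to 79.1 and 84.4 to 90.7) were higher in every KO library as scaled here. After quantile normalization or cyclic loess none of these markers was called, and the median stem and progenitor difference was -0.020 and -0.014. The megakaryocyte markers summed to 171 to 199 in WT and 207 to 218 in KO, but Itga2b (51.2 ± 2.65 and 89.2 ± 4.06) carried that rise. Without it the other 3 summed to 123 to 146 and 118 to 124, and Gp9 was lower in KO (-0.22, adjusted p = 0.00497), a call lost after quantile normalization and cyclic loess. Summed myeloid markers (171 to 211 and 194 to 222, mostly Cebpe) and mast or basophil markers (21.6 to 25.5 and 23.7 to 25.9) overlapped, and no marker on any list was at 0. Of the 6 myeloid markers, Elane (0.34, adjusted p = 0.00625) and Ly6g (0.30, adjusted p = 0.0372) were called higher in KO, and Csf1r and Itgam were also higher in every KO library; none was called after quantile normalization or cyclic loess. Fragment ends in peaks made up a median of 62.2% to 64.7% in WT and 57.4% to 59.9% in KO libraries. Nuclei with a doublet score above 0 made up 8.54% to 18.1% in WT and 21.1% to 32.4% in KO libraries, again without overlap. The part of these shifts in the differences reported below was not tested.

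The promoter sequences are shown so that genes lower in Late nuclei (Stag1, Smc1a and Ctcf) can be set beside one that was not called there as scaled here (Smc3). RefSeq (GRCm38.p6) promoters were matched for 4 of the 6 genes, Stag1, Smc1a, Smc3 and Ctcf. Those of Smc1a and Smc3 end at the start that the score table gives. Those of Stag1 and Ctcf end at -175 and -64 bases from it, and since RefSeq extends Stag1 45914 bp further upstream, the Stag1 stretch lies within the RefSeq gene. The Smc1a stretch is cut at the start of the divergent gene Ribc1. Each is given 5′ to 3′ on the plus strand. Capitals mark a GC box (GGGCGG) or a CCAAT box (CCAAT) on either strand, and none of these matches overlap.
Stag1, chr9:100643198-100643447: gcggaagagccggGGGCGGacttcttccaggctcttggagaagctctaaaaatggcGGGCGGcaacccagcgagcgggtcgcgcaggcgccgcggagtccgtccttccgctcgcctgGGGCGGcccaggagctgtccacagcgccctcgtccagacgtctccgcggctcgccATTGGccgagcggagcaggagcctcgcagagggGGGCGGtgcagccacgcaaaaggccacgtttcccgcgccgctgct
Smc1a, chrX:152016296-152016427: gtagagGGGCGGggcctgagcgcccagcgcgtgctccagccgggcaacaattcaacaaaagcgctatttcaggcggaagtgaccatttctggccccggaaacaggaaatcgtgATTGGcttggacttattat
Smc3, chr19:53600146-53600395: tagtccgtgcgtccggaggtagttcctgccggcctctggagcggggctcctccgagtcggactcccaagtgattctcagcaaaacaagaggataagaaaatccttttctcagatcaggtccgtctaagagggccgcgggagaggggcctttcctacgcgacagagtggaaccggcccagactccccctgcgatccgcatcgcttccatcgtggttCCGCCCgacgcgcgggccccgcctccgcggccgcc
Ctcf, chr8:105636288-105636473: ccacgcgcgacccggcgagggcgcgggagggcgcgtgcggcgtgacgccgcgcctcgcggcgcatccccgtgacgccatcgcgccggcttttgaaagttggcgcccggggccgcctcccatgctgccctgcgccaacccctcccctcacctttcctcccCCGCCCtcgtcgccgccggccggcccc

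All 4 stretches were rich in CpG. The Stag1 stretch held 31 CpG in 250 bases, where the median promoter held 6, and 71.2% of its bases were G or C against a median of 52.4%. It had 4 GC boxes and 1 CCAAT box. Of all 32851 promoters, 32.7% held a GC box and 33.8% a CCAAT box in the same window. The 132 bases between Ribc1 and Smc1a held 1 of each (27.4% and 22.6% of promoters at the same offsets). Smc3 had 1 GC box, and Ctcf had 1 GC box in 186 bases with 32 CpG (22.0% of promoters). No GATA site (AGATAA or AGATAG, with T also allowed as the first base, on either strand) was in any of the 4 stretches. Nor was CCGGAAG, the only ETS sequence searched. Shorter ETS sequences such as GGAA were not counted. GATA sites were in 26.5% and CCGGAAG in 6.91% of promoter windows of 250 bases. Over the promoters in full, beyond the printed stretches, 1 of the 4 genes had a GATA site, beside 29.8% of all promoters. A match or its absence describes these letters only.

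Each gene was compared between KO and WT with limma on log2(score + 1) of the library means, fitted over all genes that passed the filter, and p-values were adjusted (Benjamini-Hochberg) and read at 0.05. Over all nuclei, 2 of the 6 genes passed, Stag1 and Smc3, both lower in KO, where 14.2% of all genes tested were called lower and 43.3% were called in either direction. None of the 6 passed after quantile normalization or cyclic loess, which called 5439 and 5240 of 17682 genes. After median centring 5 passed, all lower, where 8526 of the 17682 were called and 35.4% of those were higher. The KO libraries lay wholly below the WT libraries for 4 of the 6 genes (Stag1, Smc3, Rad21 and Ctcf), against 19.3% of all genes. The median log2 difference was -0.095 over the 6 genes and 0.096 over all genes, but -0.056 and -0.018 after quantile normalization and -0.045 and -0.0033 after cyclic loess. In Int nuclei 1 of the 6 passed, Smc3, lower in KO (7.10% of all genes were called lower and 19.8% in either direction), and the same 4 genes lay wholly below WT (14.4% of all genes). In Late nuclei 1 of the 6 passed, Stag1, lower in KO (18.5% and 51.4%), and again the same 4 lay wholly below WT (22.7% of all genes). The direction of calls over all genes depended on the scaling, so ranks are given too. Over all nuclei 14.2% of genes had a lower KO minus WT difference than Stag1, 15.8% than Smc3, 17.9% than Ctcf, 24.2% than Rad21, 28.9% than Stag2 and 38.4% than Smc1a. Of the genes called over all nuclei, 67.1% were higher in KO as scaled here, 46.9% after quantile normalization, 54.0% after cyclic loess and 35.4% after median centring. In Int nuclei the 4 shares, in the same order, were 64.2%, 50.7%, 57.5% and 24.4%. For Late nuclei they were 64.0%, 46.5%, 52.5% and 47.9%. Median centring shifted the median difference of all genes from 0.096 to -0.050. With a filter at a mean of 20 the all-gene median was -0.037 over all, -0.022 in Int and -0.044 in Late nuclei. Of the calls there, 44.7%, 53.9% and 41.0% were higher. The distance of the 6 genes from all genes, and their ranks, therefore depend in part on the low-scoring genes included.

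**Figure D1:**
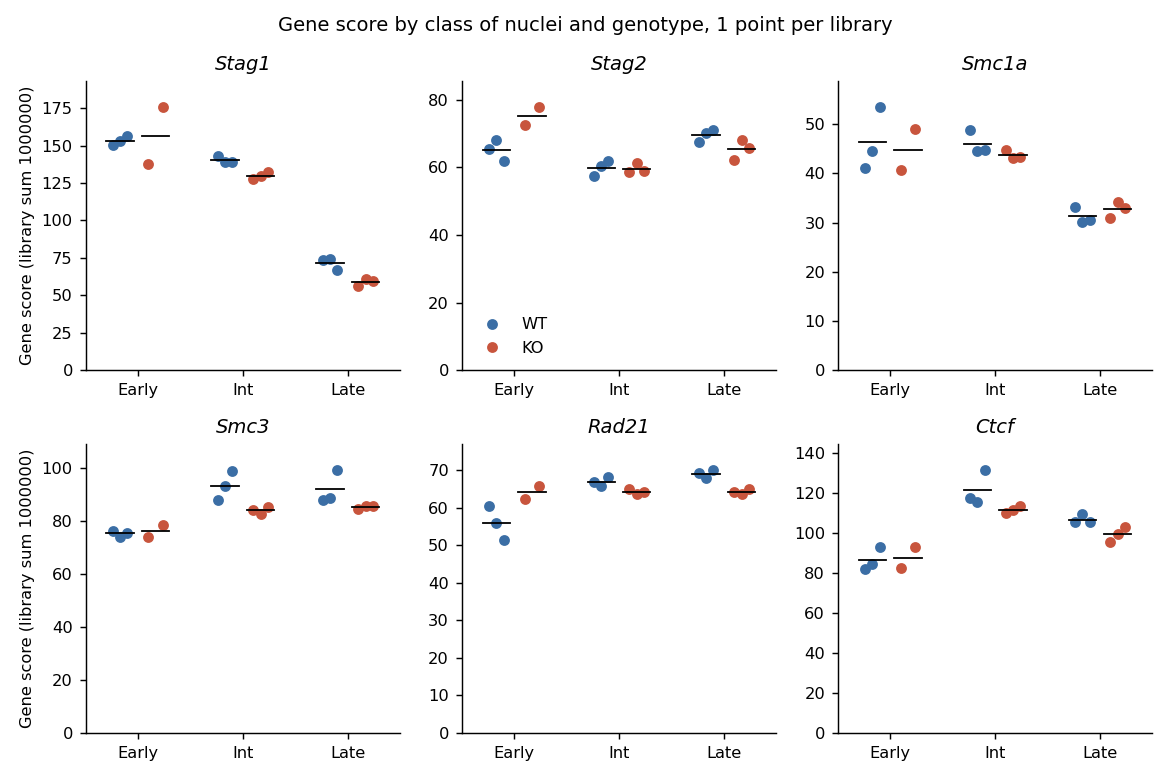
Gene score, scaled to a library sum of 1000000 (y axis, from 0) of the 6 genes in Early, Int and Late nuclei (x axis), with 1 point per library, blue for WT and red for KO, and a black line at the mean. Stag1 sits between 128 and 143 in Int and between 56.3 and 74.0 in Late nuclei, and its KO points lie below its WT points in both classes. KO replicate 3 is left out of Early, where it held 16 nuclei.

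The Stag subunits came first because deletion of one is the perturbation. Stag2 (X, 42149412 to 42277186, plus strand, mm10) scored 57.6, 60.3 and 62.0 in Int nuclei in WT and 58.5, 61.3 and 59.0 in KO. In Late nuclei the values were 67.5, 70.2 and 71.1 in WT and 62.2, 68.1 and 65.6 in KO. WT and KO libraries overlapped in both classes. The KO minus WT difference was -0.01 (log2, SE 0.055, adjusted p = 0.934) in Int and -0.09 (SE 0.051, adjusted p = 0.148) in Late nuclei. Over all nuclei it was -0.05 (SE 0.047, adjusted p = 0.348). Without KO replicate 1 it was -0.033 over all nuclei and -0.057 in Late nuclei. After median centring it passed the threshold over all nuclei (-0.20, adjusted p = 0.0202, range over the alternatives 0.0202 to 0.821).

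Stag1 (9, 100643623 to 100958544, plus strand) was lower in KO libraries, not higher. It scored 97.5, 106 and 108 over all nuclei in WT and 96.3, 91.7 and 95.4 in KO. Every KO library was below every WT library, and KO replicate 1 and WT replicate 1 differed by little. Late nuclei, where Stag1 scored lower, made up 65.9%, 51.9% and 42.5% of WT and 44.8%, 55.2% and 50.9% of KO libraries. The KO minus WT difference in log2 score was -0.14, with an adjusted p of 0.0269 (SE 0.046). That call was lost under 7 of 19 alternatives, among them quantile normalization (-0.077, adjusted p = 0.235), cyclic loess (-0.072, adjusted p = 0.280) and those that left out WT replicate 2 or 3 or KO replicate 2. With Int and Late weighted equally the limma difference was -0.17 (adjusted p = 0.00186).
In Int nuclei Stag1 scored 143, 139 and 139 in WT and 128, 129 and 133 in KO. The groups were apart, but the difference of -0.11 (SE 0.046, adjusted p = 0.0872) missed the threshold. In Late nuclei it scored 73.8, 74.0 and 67.0 in WT and 56.3, 60.6 and 59.6 in KO. There the lowest WT library, replicate 3, was still above the highest KO library, replicate 2. The difference was -0.28 (SE 0.055, adjusted p = 0.000990), a score 17.8% lower, and 6.29% of genes had a lower value. It passed under all 18 alternatives run, between -0.34 and -0.22 with adjusted p from 8.81e-05 to 0.00802. As scaled here, Late erythroblast markers summed to 2176 to 2221 in WT and 1894 to 1956 in KO. Late stem and progenitor markers summed to 28.7 to 32.5 in WT and 41.5 to 45.0 in KO. The part of these marker shifts in the Stag1 difference was not tested.

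**Figure D2:**
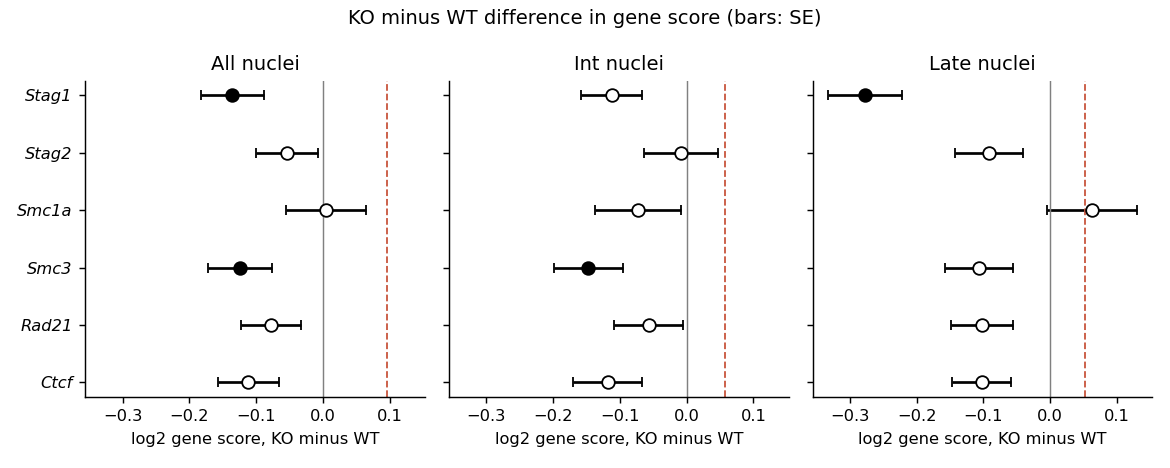
KO minus WT difference in log2 gene score (x axis) of the 6 genes (y axis) over all, Int and Late nuclei, with SE bars; filled points passed the threshold and the dashed red line is the median of all genes. Stag1 in Late nuclei stands lowest at -0.28, and only Smc1a in Late nuclei lies to the right of the dashed line.

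Within each library the log2 score of Stag1 minus that of Stag2 asks whether the balance of the paralogues moved; the scores of 2 genes of different length are not compared as levels. In Late nuclei it was 0.13, 0.08 and -0.09 in WT and -0.14, -0.17 and -0.14 in KO. All KO libraries were below all WT libraries, a difference of -0.19 (p = 0.1 by a two-sided exact permutation test, which with 3 against 3 cannot go lower; adjusted 0.3 over 3 sets of nuclei). In Int nuclei it was 1.30, 1.19 and 1.15 in WT and 1.11, 1.07 and 1.16 in KO. The difference was -0.10, with overlap (exact permutation p = 0.2, adjusted 0.3), and over all nuclei it was -0.08 (exact permutation p = 0.3, adjusted 0.3). In none of the 3 did the balance move towards Stag1 in KO.

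**Figure D3:**
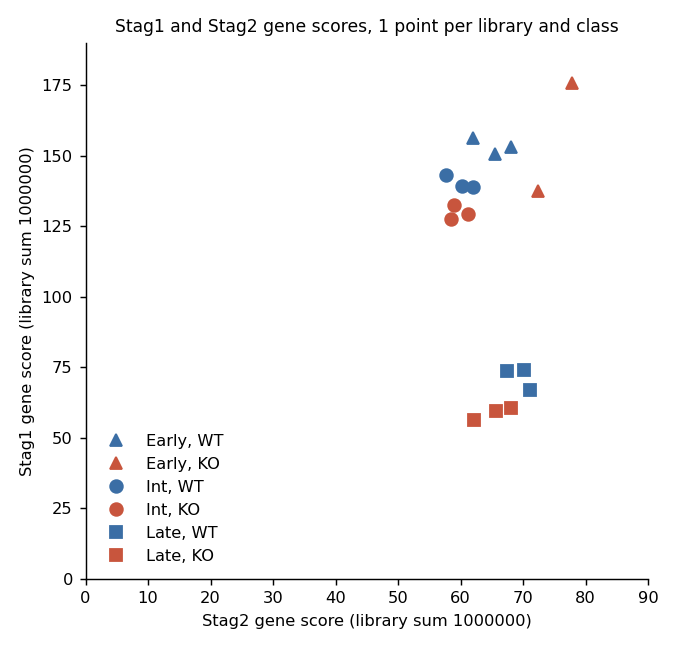
Stag1 score (y axis) against Stag2 score (x axis), both at a library sum of 1000000, with 1 point per library and class; blue is WT, red is KO, triangles are Early, circles Int and squares Late. Late nuclei lie low on the Stag1 axis, at 56.3 to 74.0, and Int nuclei high, at 128 to 143, while Stag2 spans 57.6 to 71.1 over both.

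Of the ring subunits, Smc3 (19, 53600396 to 53645831, plus strand), the partner of Smc1a whose acetylation locks the ring on DNA, was lower in KO. It scored 87.6, 89.9 and 98.7 over all nuclei in WT and 83.6, 84.1 and 85.3 in KO. WT replicate 3 was the highest, and the groups did not overlap. The difference was -0.12 (SE 0.048, adjusted p = 0.0433), and without WT replicate 3 it was -0.07 (adjusted p = 0.203). In Int nuclei Smc3 scored 87.6, 93.0 and 98.6 in WT and 84.1, 82.5 and 85.0 in KO, a difference of -0.15 (SE 0.051, adjusted p = 0.0421). That call was lost under 11 of 19 alternatives over all nuclei and 9 of 18 in Int nuclei, including 5 of the 6 fits that left out 1 library in each (all but WT replicate 1), with adjusted p up to 0.334 and 0.189. In Late nuclei the values were 87.9, 88.6 and 99.1 in WT and 84.5, 85.4 and 85.5 in KO, and the difference of -0.11 (SE 0.051, adjusted p = 0.0962) missed the threshold. Without WT replicate 3 it was -0.052 (adjusted p = 0.384), after cyclic loess -0.038, and weighted by fragments it passed (-0.13, adjusted p = 0.0263), with adjusted p from 0.0221 to 0.604 over the alternatives.

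Rad21 (15, 51962604 to 51991760, minus strand), the kleisin that separase cuts in mitosis, scored 68.3, 66.5 and 68.9 over all nuclei in WT and 64.4, 63.7 and 64.7 in KO. The groups were apart by a small step, -0.08 (SE 0.045, adjusted p = 0.158). In Int nuclei the difference was -0.06 (adjusted p = 0.473) and in Late nuclei -0.10 (adjusted p = 0.0810). After median centring it passed in all 3 sets (-0.22, -0.23 and -0.17), and after cyclic loess it was -0.038 over all nuclei (adjusted p = 0.522). Smc1a (X, 152016428 to 152061973, plus strand) scored 38.4, 37.1 and 38.7 in WT and 38.3, 38.3 and 38.0 in KO, a difference of 0.00 (SE 0.059, adjusted p = 0.955), and its sign changed with the scaling. In Int nuclei its difference was -0.07 (SE 0.065, adjusted p = 0.459) and in Late nuclei 0.06 (SE 0.068, adjusted p = 0.455), with overlapping libraries in both.

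Ctcf (8, 105636538 to 105682922, plus strand) scored 109, 111 and 120 over all nuclei in WT and 102, 105 and 108 in KO. Every KO library was below every WT library, but WT replicate 1 and KO replicate 3 almost met, and the difference of -0.11 (SE 0.046, adjusted p = 0.0572) missed the threshold. It passed under 6 of 19 alternatives, but shrank to -0.048 after quantile normalization, -0.045 after cyclic loess and -0.069 without WT replicate 3 (adjusted p = 0.435, 0.468 and 0.234). The values were 118, 115 and 131 in Int nuclei of WT and 110, 111 and 114 in those of KO (-0.12, SE 0.051, adjusted p = 0.107), a difference that was -0.060 without WT replicate 3 and passed without WT replicate 2 (-0.15, adjusted p = 0.0402). In Late nuclei they were 105, 109 and 105 in WT and 95.3, 99.5 and 103 in KO (-0.10, SE 0.045, adjusted p = 0.0669). That difference was -0.042 after quantile normalization and -0.034 after cyclic loess. It passed after median centring, without KO replicate 3, in nuclei of 4000 to 16000 fragments and without the top doublet scores (adjusted p = 0.00955, 0.0455, 0.0439 and 0.0470).

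The change from Int to Late nuclei was then measured within each library, so that both classes shared the preparation. What the authors assigned the classes from is not given in the sources used here. If it was this accessibility, differences between classes are in part built in, and their p-values only describe how alike the libraries were. Late nuclei were also shallower, with medians of 5693 to 6812 fragments against 10121 to 14998. Marker sums moved with the classes: from Int to Late nuclei of WT those of stem and progenitor markers went from 53.1 to 66.2 down to 28.7 to 32.5, of lymphoid markers from 87.0 to 96.6 down to 54.4 to 62.0, and of myeloid markers from 134 to 158 up to 217 to 238. The myeloid rise was that of Cebpe (0.96), while Itgam (-0.55) and Ly6g (-0.69) were called lower. Erythroblast markers went from 1700 to 1883 up to 2176 to 2221. Their part in the differences between classes was not tested. In WT, 3 of the 6 genes were lower in Late nuclei (Stag1, Smc1a and Ctcf) and 1 was higher (Stag2), where 42.7% of all genes were called lower and 30.6% higher. In KO the same 3 were lower and the same 1 higher, against 41.9% and 28.9% of all genes. After quantile normalization the share of calls that were higher over all genes moved from 41.7% to 55.1% in WT and from 40.8% to 54.2% in KO, and Stag1, Smc1a, Ctcf and Stag2 stayed called in their directions. Smc3 was then also called lower in WT (-0.11, adjusted p = 0.0129).

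**Figure D4:**
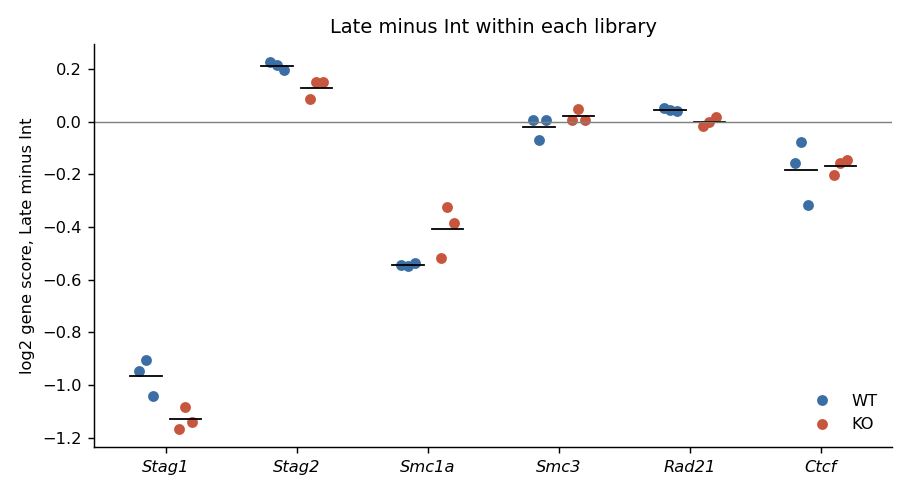
Late minus Int difference in log2 gene score within each library (y axis) for the 6 genes (x axis), blue for WT and red for KO, with a black line at the mean of 3. Stag1 lies between -1.16 and -0.90 and Smc1a between -0.55 and -0.33 in every library, while Stag2 lies above 0 in all 6.

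For Stag1 the Late minus Int difference was -0.95, -0.90 and -1.04 in WT and -1.16, -1.08 and -1.14 in KO. The fitted values were -0.96 in WT (SE 0.038, adjusted p = 8.28e-15) and -1.13 in KO (SE 0.038, adjusted p = 8.25e-16). In WT 7.05% of genes fell by more, and in KO 1.35%. With nuclei of 4000 to 16000 fragments alone, the differences were -0.98 and -1.15. Smc1a fell in every library. It changed by -0.54 in WT (SE 0.057, adjusted p = 2.86e-08) and -0.41 in KO (SE 0.057, adjusted p = 1.91e-06). Its score went from 48.8, 44.6 and 44.8 in Int to 33.2, 30.2 and 30.5 in Late nuclei of WT, and from 44.7, 43.2 and 43.3 to 30.9, 34.3 and 32.9 in KO. Ctcf changed by -0.18 in WT (SE 0.040, adjusted p = 0.000336) and -0.17 in KO (SE 0.040, adjusted p = 0.000841), with WT libraries spread from -0.32 to -0.08. Its WT value was -0.12 without WT replicate 3 (adjusted p = 0.0132) and -0.28 after quantile normalization. Stag2 rose by 0.21 in WT (SE 0.041, adjusted p = 9.81e-05) and 0.13 in KO (SE 0.041, adjusted p = 0.00842). The KO call of Stag2 was lost without KO replicate 2 or KO replicate 3 (0.12 in both). Smc3 (-0.02 in WT, 0.02 in KO) and Rad21 (0.04 and -0.00) did not pass, with SE of 0.037 and 0.040.

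Whether Stag2 status altered this step was tested as the KO minus WT difference of the Late minus Int values. None of the 6 genes passed (6.41% of all genes did, a share that fell markedly under 8 of 13 alternatives and rose under 1). Stag1 came nearest, at -0.17 (SE 0.053, adjusted p = 0.0711), with all 3 KO libraries below all 3 WT libraries. Its value stayed between -0.20 and -0.13, and adjusted p ranged from 0.0163 without WT replicate 3 to 0.430 with the variance trend taken on the mean difference, so the larger KO difference in Late than in Int nuclei is not established. The other 5 genes had differences from -0.08 for Stag2 to 0.13 for Smc1a, with adjusted p from 0.383 to 0.921.

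In the Early class, 3 WT and 2 KO libraries held at least 20 nuclei, too few for a test. Early nuclei of WT had lower erythroblast marker sums (902 to 1050) and higher stem and progenitor sums (114 to 141) than Int nuclei, and the part of this in the levels was not tested. Stag1 scored 151, 153 and 156 in WT and 137 and 176 in KO replicates 1 and 2, so every WT library was above its Int values, and the KO libraries were spread widely. Stag2 scored 65.5, 68.1 and 62.0 in WT and 72.4 and 77.8 in KO, with both KO libraries above WT. Rad21 (60.4, 56.0 and 51.3 in WT, 62.4 and 65.8 in KO), Smc3 (73.8 to 76.1 in WT, 73.9 and 78.4 in KO) and Ctcf (82.1 to 92.9 in WT, 82.3 and 93.0 in KO) scored lower in Early than in Int nuclei in every WT library. Smc1a (41.1 to 53.4 in WT, 40.6 and 49.0 in KO) overlapped with its Int values. In WT, the order of classes was therefore Early, Int, Late for Stag1 from high to low, and Int, Late, Early for Ctcf. Depth also ran Early, Int, Late from high to low in every library. In WT replicate 1, 102 Early nuclei held 4.77e+06 fragments and 2236 Int nuclei held 3.05e+07. The part of depth in these levels was not tested.

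Clusters C6, C8, C9, C10 and C11 had at least 20 nuclei in libraries of 1 genotype only, and the authors' clusters other than C2 and C5 give levels only. Among clusters mostly of WT nuclei, Stag1 scored 142 ± 6.00 in C9, 141 ± 3.74 in C11 and 135 ± 5.25 in C6 (SD, n = 3), which overlap, and 70.2 ± 4.26 in C3, which holds most Late nuclei of WT. Among clusters mostly of KO nuclei it scored 134 ± 1.95 in C8 and 124 ± 0.535 in C10, which were apart, and 58.3 ± 2.02 in C2, which holds most Late nuclei of KO. Stag2 moved the other way, 58.8 ± 2.97 in C11 against 69.4 ± 1.41 in C3, and 56.0 ± 1.35 in C10 against 65.3 ± 3.07 in C2. It scored 58.5 ± 4.35 in C6, 64.0 ± 1.63 in C9 and 61.6 ± 3.38 in C8, and C8 overlapped C2. Ctcf scored 103 ± 4.98 in C9 and 102 ± 0.939 in C8, below C11 (122 ± 3.12) and C6 (133 ± 10.8). C10 (110 ± 3.72) lay above C8 and overlapped C9. It scored 106 ± 2.37 in C3, which overlapped C9, and 98.8 ± 3.71 in C2, which overlapped C8. The lower Ctcf score of the Late class was thus not seen for C3 against C9 or for C2 against C8. Nuclei of C9 and C8 were deeper than those of the other clusters named here. In WT replicate 1, 544 nuclei of C9 held 1.11e+07 fragments and 4331 of C3 held 3.02e+07. The part of depth in these levels was not tested. Because clusters were made from the same nuclei, these levels are descriptions.

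Clusters C2 and C5 had at least 50 nuclei in every library and were tested. In both, every KO library had more fragments per nucleus on average than every WT library. In C2, 64 nuclei of WT replicate 1 held 142594 fragments and 2134 of KO replicate 1 held 1.31e+07. In C5, 143 nuclei of WT replicate 1 held 659367 fragments and 528 of KO replicate 1 held 3.10e+06. The part of depth in the differences within these clusters was not tested. C2 held 58 to 68 nuclei in WT and 2134 to 2490 in KO libraries, and limma called none of its 17360 genes (0.00%), with 2190 at an unadjusted p under 0.05. Without WT replicate 1, 2 or 3 it called 395, 873 and 1161 genes. Stag1 there scored 71.6, 45.3 and 108 in WT and 56.1, 60.0 and 58.9 in KO, a difference of -0.27 (SE 0.31, adjusted p = 0.746). The WT libraries of C2 were spread widely, and all 6 genes overlapped between genotypes. In C5 none of the 6 genes passed, where 0.890% of all genes did (173, but 8 without KO replicate 1 and 329 without WT replicate 1). In C5 Stag1 scored 137, 136 and 141 in WT and 129, 132 and 144 in KO, a difference of -0.03 (SE 0.10, adjusted p = 0.925), with overlap. Rad21 scored 49.4, 52.1 and 52.6 in WT and 67.0, 65.4 and 66.5 in KO. It was the only one of the 6 whose groups were apart (19.6% of all genes were apart in either direction, 11.7% with KO above), and its direction was opposite to that over all nuclei. The difference was 0.36 (SE 0.13, adjusted p = 0.249). C5 held 143 to 261 nuclei in WT and 528 to 598 in KO libraries.

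The share of nuclei with a score above 0 depends on depth, and it was compared for each gene over all nuclei. For Stag1 it was 68.2%, 71.9% and 69.1% in WT and 69.9%, 64.5% and 68.9% in KO. None of the 6 genes passed (exact permutation tests, two-sided, p from 0.2 to 0.9, adjusted 0.9 for each), with differences from -1.97 points for Stag1 to 3.08 points for Smc1a. Without KO replicate 2, and with no limit on fragments, the Stag1 difference was -0.349 points. Among nuclei of 4000 to 16000 fragments the differences of Stag1 and Ctcf were -5.77 and -3.02 points. Those of Stag2 (-1.86), Smc1a (-0.345), Smc3 (-3.42) and Rad21 (-1.75) changed sign in that range. In Late nuclei, where depths were close, Stag1 was above 0 in 58.6%, 56.8% and 50.6% of WT and 45.8%, 47.1% and 50.3% of KO nuclei. All KO libraries were below all WT libraries, a difference of -7.58 points (exact permutation p = 0.1, the smallest possible, adjusted 0.3 over the 6 genes). Among nuclei of 4000 to 16000 fragments the Late shares of Stag1 were 65.9%, 64.1% and 59.3% in WT and 54.3%, 55.4% and 57.7% in KO. The lower Late share was not particular to Stag1. Without that limit Ctcf (-4.01 points), Stag2 (-3.66), Smc3 (-3.49) and Rad21 (-2.49) were also lower in KO, but Smc1a (0.475) was not. Within that range Stag2 and Smc3 also lay wholly below WT in Late nuclei (exact permutation p = 0.1, adjusted 0.2). In Int nuclei the mean Stag1 share was 85.4% in WT and 87.4% in KO. Within that range it was 89.1% and 87.9%, with overlap in both.

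A gene score shares fragments with genes nearby, so the genes within 100 kb were set beside each of the 6. Of the 3 tested around Stag1, Pccb, 23488 bp away and encoding a propionyl-CoA carboxylase subunit, was lower in KO (-0.17, SE 0.046, adjusted p = 0.00760). Nck1, an adaptor protein gene 97489 bp away, was also lower (-0.14, SE 0.046, adjusted p = 0.0248), a call lost after quantile normalization (adjusted p = 0.0974). Neither shared the fall of Stag1 in Late nuclei: in WT, Nck1 rose by 0.15 (adjusted p = 0.00212) and Pccb differed by 0.05 (adjusted p = 0.262).
Around Stag2 the only gene was Xiap, an inhibitor of caspases 39748 bp upstream. From Int to Late it changed by -0.87 in WT and -1.23 in KO (adjusted p = 1.40e-09 and 8.42e-12), opposite to the rise of Stag2. Smc1a starts 133 bp from Ribc1, a ciliary protein gene on the other strand, whose Late minus Int differences of -0.47 and -0.35 were close to those of Smc1a. At that distance the fragments of the 2 genes cannot be told apart. Of the 4 genes around Smc1a, only Iqsec2 was called in KO against WT (0.30, adjusted p = 0.0366), and not under quantile normalization, cyclic loess or median centring (adjusted p = 0.154 to 0.809).
Of the 3 listed around Smc3, the phosphatase gene Dusp5 was higher in KO (0.41, adjusted p = 0.00792, but 0.188 after quantile normalization). The table lists Mir3084-1 there over 24942235 to 60774397 on chromosome 19, where RefSeq places a hairpin, so that feature has no local meaning. Around Ctcf, 5 of 12 genes were called lower in KO and none higher, against 14.2% lower and 43.3% in either direction over all genes. After quantile normalization or cyclic loess 2 of the 12 remained lower, Ripor1 and Gfod2. Of all 25 neighbours tested, 7 were lower and 2 higher as scaled here, 5 lower and none higher after quantile normalization, and 15 lower and 1 higher after median centring. Of all 17682 genes, quantile normalization called 5439 (46.9% of those higher) and median centring 8526 (35.4% of those higher). The called genes around Ctcf that changed most were Ripor1 (-0.21, adjusted p = 0.0118), Gfod2 (-0.20, adjusted p = 0.0127) and Gm5914 (-0.13, adjusted p = 0.0268, and 0.161 after quantile normalization). Gm5914 and Agrp overlap the start of Ctcf. None of the 2 tested genes around Rad21 was called.

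**Figure D5:**
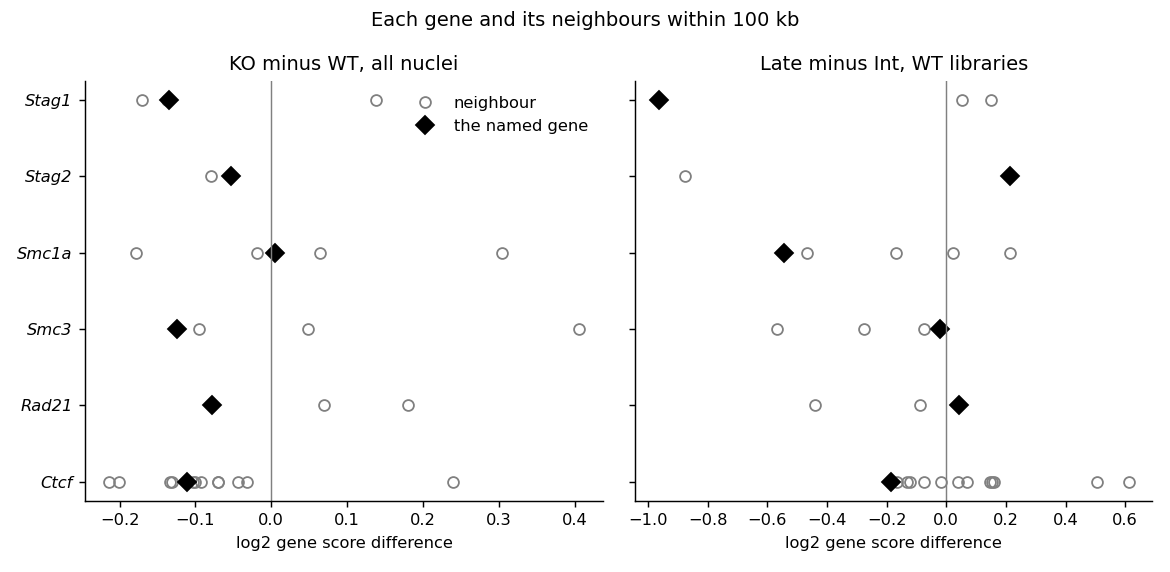
Log2 gene score difference (x axis) of each of the 6 genes (black diamonds) and of the tested genes within 100 kb of it (open circles), KO minus WT over all nuclei on the left and Late minus Int in WT libraries on the right. On the right, Stag1 at -0.96 stands apart from its neighbours at 0.05 and 0.15, and Stag2 at 0.21 from Xiap at -0.87.

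Smc1a and Stag2 lie on chromosome X, where the median KO minus WT difference was -0.02 over 416 genes against 0.10 over 17266 autosomal genes. It was -0.01 against 0.06 in Int and -0.05 against 0.06 in Late nuclei. The Stag2 differences of -0.05, -0.01 and -0.09 were nearer to the median of their own chromosome than to that of the autosomes. Smc1a was nearer to the X median over all (0.00) and Int nuclei (-0.07), but in Late nuclei its 0.06 was next to the autosomal median. Xist, the RNA gene of X inactivation, scored 4.55 to 4.85 in WT and 5.03 to 5.85 in KO libraries.

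The regulators of cohesin formed a list of 12, all tested. Over all nuclei 3 were lower and 1 was higher in KO (of all genes, 14.2% were lower and 43.3% called either way), with a median of -0.08 against 0.10 over all genes (-0.050 and -0.018 after quantile normalization, -0.041 and -0.0033 after cyclic loess). Pds5a, which with Wapl controls release of the ring, scored 66.3 ± 2.16 in WT and 57.1 ± 2.81 in KO (-0.21, SE 0.051, adjusted p = 0.00330). Wapl scored 110 ± 10.9 and 93.7 ± 2.41 (-0.23, SE 0.056, adjusted p = 0.00448, but 0.0526 after quantile normalization). The third was Esco2, an acetyltransferase of Smc3 (-0.20, adjusted p = 0.000697), named after its value was seen. Hdac8, the deacetylase of Smc3, was higher, 9.89 ± 0.973 and 13.7 ± 0.299 (0.44, SE 0.11, adjusted p = 0.00465, but 0.0989 after quantile normalization). From Int to Late nuclei of WT, 7 of the 12 rose and 3 fell, against 30.6% and 42.7% of all genes. Wapl rose by 0.43 and Pds5a changed by -0.66.

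Of 4 meiotic subunits 2 were tested, and both were lower in KO, as were 14.2% of all genes: Rec8 at 31.1 ± 1.23 and 24.0 ± 1.46 (-0.36, adjusted p = 0.00144) and Stag3 at 27.4 ± 1.64 and 22.6 ± 0.410 (-0.26, adjusted p = 0.0151). Of 14 subunits of condensin and of the Smc5/6 complex, related rings of mitosis and repair, 6 were lower and none was higher, beside the same 14.2% and 43.3%. Smc6 (-0.22, adjusted p = 0.00396) and Nsmce4a (-0.19, adjusted p = 0.00305) changed most. In Late against Int nuclei of WT, 10 of the 14 fell and 3 rose (42.7% and 30.6% of all genes). Of 8 other DNA-binding architectural factors 2 were lower and none was higher, again beside 14.2% lower and 43.3% in either direction over all genes. The 2 were Vezf1 (-0.19, adjusted p = 0.00382) and Ldb1, a looping cofactor of Gata1 (-0.14, adjusted p = 0.0462, but 0.224 after quantile normalization). The medians of these 2 lists were -0.09 and -0.09. After median centring the calls grew to 8 lower of 12 regulators, 11 of 14 and 5 of 8, and after quantile normalization they were 2, 5 and 2, with 1 of the 14 higher there and after cyclic loess. Of all 17682 genes, median centring called 8526 (35.4% of those higher) and quantile normalization 5439 (46.9% of those higher).

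The genes most like each of the 6 were ranked by Pearson correlation of log2 scores over 12 values, the Int and Late means of 6 libraries. These values share libraries, depth and class, so the correlations describe a pattern. Stag1 was nearest to Siva1 (r = 0.996), Hist1h4j (0.996) and Dna2 (0.995), whose Late minus Int differences in WT were -1.01, -1.53 and -0.80. Among the genes nearest to Stag2 were Suv39h1 (0.965) and Cenpu (0.964). Smc1a was nearest to its neighbour Ribc1 (0.994), then Esrrg (0.986) and Tprg (0.986). Rad21 was nearest to Uhrf2 (0.966), Stom (0.959) and Anp32b (0.952), and Ctcf to Lyrm7 (0.978), E130307A14Rik (0.973) and Il2rg (0.971). Smc3 had the weakest nearest genes, Atp6ap2 (0.918), Jpt2 (0.900) and Gna12 (0.894). Among the 6 genes, Stag1 followed Smc1a (r = 0.946) and Ctcf (0.841) and ran against Stag2 (-0.774) over these values, while Smc3 followed Rad21 (0.765).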

How the data were processed

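The deposited table held, per the file headers, a gene score signal per gene and nucleus that the authors had scaled to about 10000 per nucleus (checked: 9999.855 to 10000.12), with 25.2% of values above 0. Its rows carry no names and were matched to the deposited table of 24333 genes by row order, on which every gene value rests. The deposited table of nuclei gave counts of ATAC fragments, a doublet score, quality measures, and for each nucleus its class (Early, Int, Late) and cluster. The build was mm10 and Cell Ranger was used, per the submitters' processing notes; how fragments were weighted around a gene is not given in the sources used here. Fragment counts reached down to 1000 per nucleus.

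Scores were averaged over the nuclei of each library and rescaled to a sum of 1000000. Genes with a mean of at least 5 were compared as log2(value + 1), which understates changes of low genes, by a linear model (R 4.3.3, limma 3.58.1; two-sided, eBayes with the variance trend on the mean level; Benjamini-Hochberg, threshold 0.05): 17682 genes over all nuclei, 19465 in Int and 15886 in Late nuclei. Late minus Int differences were fitted per library over 15873 genes, with the variance trend on the mean level. Single values were compared with exact permutation tests in scipy 1.17.1; 3 libraries against 3 have 20 arrangements. A class or cluster was tested with at least 50 nuclei in every library, and a level is given with at least 20. Python 3.11.15, numpy 2.4.6, pandas 2.3.3 and matplotlib 3.10.9 were used. No batch is given in the labels.

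On simulated data made from these libraries, with 50 genes changed at each size, a change of 0.25 was found for 46% of the changed genes over all nuclei (17682 genes tested), 34% in Int (19465) and 40% in Late nuclei (15886), and for 26% in the KO effect in Late against Int (15873). A change of 0.15 was found for 12%, 6%, 12% and 10%, in that order, and a change of 1 for 100% in each. Few genes changed in these simulations, and noise followed the mean-variance trend alone, with no spread particular to each gene. In the data 43.3% of genes were called over all nuclei, which makes the adjusted threshold easier to pass. These shares therefore do not give the power of the real comparisons.

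The 6 genes, the lists and the tests were chosen with earlier results of these data known. Named genes were the 6, the neighbours within 100 kb past the threshold (at most 3 for each gene, those that changed most), the 2 highest and 2 lowest called genes of each list, and the 3 genes most correlated with each (1 of those for Stag2 is not reported here); Xiap, Ribc1, Agrp, Mir3084-1, Esco2 and Xist were named outside this rule. Alternatives were other scalings, pseudocounts and filters, no variance trend, weights by fragments, a fragment range of 4000 to 16000, removal of the top 5% of doublet scores, the replicate number as a block, and each library left out. Nuclei were not filtered otherwise.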

Additional observations from a re-analysis of the deposited data

How the results depend on the processing

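The fall of Stag1 in KO passed in Late nuclei under all 18 alternatives, and the Late minus Int falls of Stag1, Smc1a and Ctcf passed under all 13 in both genotypes. Median centring made Rad21 and Ctcf pass over all, Int and Late nuclei, Smc1a in Int nuclei (-0.25) and Smc3 in Late nuclei (-0.17). With 3 libraries a genotype, the SE of the KO minus WT log2 differences of the 6 genes was 0.045 to 0.068 over all, Int and Late nuclei, 0.10 to 0.24 in cluster C5 and 0.18 to 0.46 in C2, where nuclei were fewer.

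Over all nuclei the 7661 genes called became 4244 with a filter at a mean of 20 (fewer genes tested) and 2415 when nuclei were weighted by fragments. Stag1 missed the threshold after quantile normalization (-0.077), cyclic loess (-0.072), with no variance trend (-0.14) and weighted by fragments (-0.087), and ran from -0.18 to -0.10 with 1 library left out. Stag2 passed after median centring (-0.20). Smc1a changed sign after quantile normalization (-0.059), median centring (-0.14), cyclic loess (-0.045), weighted by fragments (-0.012), in the fragment range (-0.0087) and with Int and Late weighted equally (-0.016), and ran from -0.014 to 0.017 with 1 library left out. In Int nuclei the 3858 genes called became 1921 with no variance trend and 2547 to 4782 with 1 library left out (2547 without KO replicate 1). Stag1 passed after median centring (-0.29) and weighted by fragments (-0.12). Stag2 was 0.00072 in the fragment range and -0.036 to 0.016 with 1 library left out. In Late nuclei the 8161 genes called became 4560 with a filter at 20 (fewer genes tested). In those nuclei Stag2 passed after median centring (-0.16), and Smc1a changed sign after quantile normalization (-0.021) and median centring (-0.0019). In cluster C5, with 1 library left out, the 173 genes called became 8 to 329, Ctcf ran from -0.086 to 0.064 and Smc1a from -0.15 to 0.37. In cluster C2 no gene called became 0 to 1161 (395, 873 and 1161 without WT replicates 1, 2 and 3), Stag1 ran from -0.59 to 0.033, Smc3 from -0.19 to 0.088, Rad21 from -0.11 to 0.84 and Ctcf from -0.25 to 0.051.

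For Late against Int, a filter at 20 gave 7311 genes in WT and 7230 in KO, from 11629 and 11234, with fewer genes tested. Stag2 in KO ran from 0.12 to 0.15 with 1 library left out. Smc3 in WT passed after quantile normalization (-0.11) and ran from -0.032 to 0.0057 with 1 library left out. In KO, Smc3 changed sign after quantile normalization (-0.028) and in the fragment range (-0.028), and Rad21 after quantile normalization (0.0014), in the fragment range (0.056) and with 1 library left out (-0.010 to 0.0075). The 1017 genes whose KO effect differed between Late and Int became 468 with a filter at 20 (fewer genes tested). They became 206 with no variance trend, 599 in the fragment range and 309 to 2211 with 1 library left out (2211 without WT replicate 3). With the variance trend on the mean difference, an alternative chosen after seeing the data, they became 35. For the KO effect in Late against Int, Stag1 ran from -0.20 to -0.13 with 1 library left out and Ctcf from -0.051 to 0.069. In the fragment range Rad21 was 0.020 and Ctcf -0.025. Shares of nuclei above 0 in KO minus WT changed sign in the fragment range for Stag2 (-1.86 points), Smc1a (-0.345), Smc3 (-3.42) and Rad21 (-1.75). With 1 library left out they ran from -0.855 to 1.38 for Ctcf, -0.194 to 3.68 for Rad21 and -0.754 to 1.72 for Smc3. The cause of these changes was not tested.

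Correlations of the deviations of same-numbered WT and KO libraries were -0.12, -0.27 and 0.21 over all nuclei, 0.13, -0.084 and 0.19 in Int and 0.087, 0.045 and 0.051 in Late nuclei. They were not all above 0.1 in any set, so the numbers were not taken as pairs; in Late nuclei, though, every library correlated best with its own number, a hint from the data and not from the design. With the replicate number as a block, 7470 genes were called over all nuclei, the KO difference of Stag1 stayed at -0.14, and the difference of its KO effect between Late and Int passed (-0.17, adjusted p = 0.04998), as did Ctcf over all nuclei (-0.11, adjusted p = 0.0444). The block called 1436 genes for that difference.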
